A study of Mus musculus with 180 samples.

Results

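Proteasome genes of mouse blood stem and progenitor cells were examined in a table of single-cell transcript levels. They were chosen by symbol, as every listed gene whose name starts with Psm, a letter from a to g and a digit. The rule found 48 of the 14825 listed genes, of which 47 encode subunits, activators, an inhibitor or assembly chaperones of the proteasome. The other, Psmc3ip, shares the symbol only and encodes a partner of the meiotic recombinases. By role there were 7 alpha and 7 beta genes of the constitutive 20S core, 5 immunoproteasome genes, 6 ATPases and 3 other genes of the 19S base, 8 lid genes, 7 assembly chaperones, 3 other regulators and Psma8, an alpha gene known from the testis. Levels are in TPM, which is per transcript length and scaled to the same sum in every cell. A gene is called detected in a cell where its TPM was 1 or more. A gene was kept if detected in 10% or more of the cells in any population, which held for 10856 genes and for all 48 members.

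The study asked what Hoxb5 does when it is switched on in multipotent progenitors (MPP), cells without lasting self-renewal. All mice were C57BL/6. The 47 CD11b+CD48+SK cells, Sca1+ c-kit+ cells that carried CD11b and CD48, were donor-derived and came from primary recipients at week 8 after transplantation. Their donors were MPP of Mx1cre/Rosa LSL-Hoxb5-EGFP/+ mice, put into lethally irradiated CD45.1+ recipients that were injected with pIpC, which induces interferon and, through the Mx1 promoter, Cre and so the Hoxb5 cassette. The comparators were 41 WT-MPP (Lin- CD48- Sca1+ c-kit+ CD150- CD135+) and 36 bone marrow haematopoietic stem cells (BM HSC) of Rosa LSL-Hoxb5-EGFP/+ mice 8 weeks old, and 56 fetal liver HSC (FL HSC) of that genotype at Day14.5, gated with CD45.2 and without lineage markers on Sca1, c-Kit, Mac1 and CD150. These 3 populations had the cassette unrecombined, with no Cre and no transplantation. Genotype, transplantation, irradiation, pIpC and gate differ together between the CD11b+CD48+SK cells and the others, and stage, tissue and gate between FL HSC and the adult cells, so their parts cannot be told apart. Each cell was 1 library and no animal was named. Each population therefore counted as 1 sample, no test was made, and every SD and interval below covers the spread or the counting of cells only.

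Unless named otherwise, 4 values in a row stand for CD11b+CD48+SK, WT-MPP, BM HSC and FL HSC in this order. Per cell, 4514, 3844, 4441.5 and 5206.5 genes were detected in the median. Hoxb5 was detected in 91.5%, 17.1%, 22.2% and 57.1% of cells. Of 8 myeloid markers, 6, 3, 5 and 5 occurred in at least 1 cell of the population. Among the CD11b+CD48+SK cells Mpo occurred in 91.5% and Ctsg in 83.0%, while Elane and Csf1r were at 0 in all 47. The summed TPM of the 8 lay at 559 to 8226, 18.2 to 4568, 499 to 3915 and 190.0 to 4503 over the cells of each population. Its medians were 2038, 1483, 1252 and 1681 TPM. Of the 3 listed mast or basophil markers, 3, 1, 2 and 2 occurred in at least 1 cell of the population, Cpa3 in 87.2% of the CD11b+CD48+SK cells. The summed TPM of these markers reached 9248.5, 304, 3.91 and 137. The part of these markers in the results was not tested.

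The 26S proteasome degrades proteins that carry ubiquitin chains. Its 20S core is a barrel of outer alpha and inner beta rings, in which the products of Psmb5, Psmb6 and Psmb7 cut the substrate, and its 19S cap binds, unfolds and deubiquitinates it. In blood cells, and elsewhere under interferon gamma, Psmb8, Psmb9 and Psmb10 encode subunits that replace these cutting subunits and favour peptides for major histocompatibility complex (MHC) class I, and Psme1 and Psme2 encode the PA28 cap that opens the barrel.

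Because the results turn on the exchange of cutting subunits, the start regions of both genes are shown for the beta-5 place (Psmb5 at chr14:54617946-54618245, minus strand, and Psmb8 at chr17:34197945-34198244, plus strand) and for the beta-1 place (Psmb6 at chr11:70525107-70525406, plus strand, and Psmb9 at chr17:34187281-34187580, minus strand). Each window runs from 250 bases before to 50 after a start site, 5′ to 3′ on the strand of the gene, and was taken from RefSeq on GRCm38.p6. The window of Psmb6 is set on a start site slightly inside the outer span of the gene given below, those of the others on the end of the span. Capitals mark the motifs found by the search described next.
Psmb5: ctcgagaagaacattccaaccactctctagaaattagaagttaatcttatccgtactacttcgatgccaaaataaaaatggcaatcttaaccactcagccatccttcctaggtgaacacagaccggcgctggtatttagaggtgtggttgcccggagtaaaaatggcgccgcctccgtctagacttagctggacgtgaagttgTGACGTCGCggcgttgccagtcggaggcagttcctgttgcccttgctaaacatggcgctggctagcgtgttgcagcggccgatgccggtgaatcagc
Psmb8: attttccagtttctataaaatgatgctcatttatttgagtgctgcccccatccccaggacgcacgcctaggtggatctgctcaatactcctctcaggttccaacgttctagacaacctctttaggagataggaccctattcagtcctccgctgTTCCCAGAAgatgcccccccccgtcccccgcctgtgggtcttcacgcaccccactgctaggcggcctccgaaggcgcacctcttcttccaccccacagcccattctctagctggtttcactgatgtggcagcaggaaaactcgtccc
Psmb6: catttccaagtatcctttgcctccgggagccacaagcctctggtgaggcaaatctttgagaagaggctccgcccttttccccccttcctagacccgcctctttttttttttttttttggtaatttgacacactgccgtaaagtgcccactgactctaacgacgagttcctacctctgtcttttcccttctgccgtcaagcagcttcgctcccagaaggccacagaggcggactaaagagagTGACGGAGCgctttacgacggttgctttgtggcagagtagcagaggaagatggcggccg
Psmb9: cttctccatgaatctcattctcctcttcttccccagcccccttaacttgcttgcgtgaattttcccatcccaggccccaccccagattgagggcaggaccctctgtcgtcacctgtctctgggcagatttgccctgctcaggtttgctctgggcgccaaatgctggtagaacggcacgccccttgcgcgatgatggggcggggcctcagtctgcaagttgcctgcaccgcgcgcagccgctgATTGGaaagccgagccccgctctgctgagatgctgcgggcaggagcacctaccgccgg

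Both strands were searched for 4 motifs. The constitutive genes held the antioxidant response element (TGACNNNGC), as TGACGTCGC in Psmb5 and TGACGGAGC in Psmb6. Psmb8 held TTCCCAGAA, a match to the interferon gamma activated site (TTCNNNGAA), and Psmb9 held a CCAAT box (CCAAT), printed from its other strand as ATTGG. RefSeq gave a window for 40 of the 48 genes. The antioxidant motif was in 15% of these and in 13.99% of all 27025 windows, the activated site in 7.5% and 9.55%, and the CCAAT box in 35% and 41.1%. The interferon-stimulated response element, searched as GAAA and GAAA with any 2 bases between them, was in 12.5% and 3.99%, and the members that held it were Psmb3, Psmd4, Psmd9, Psme1 and Psmg4. In the alpha ring, 5 of 7 genes held the CCAAT box. Psmb9 lies head to head with Tap1, which encodes a chain of the peptide transporter. Their start sites are 226 bases apart and their windows share 275 bases (chr17:34187306-34187580). A match of letters is a description of the window and no evidence of binding.

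Immunoproteasome transcripts made up a smaller part of the cutting subunit transcripts in FL HSC than in the 3 adult populations. Psmb8, Psmb9 and Psmb10 together made 62.6%, 64.2%, 55.2% and 40.6% of the summed mean TPM of the 6 genes. With cells scaled by their median ratio to the mean cell, WT-MPP stood at 54.02% and BM HSC at 54.9%. The order of these 2 by summed means thus depended on the scaling. Within 1 cell the share does not depend on scaling. In single CD11b+CD48+SK cells the share ran from 30.3% through 62.0% to 81.8%, the middle value being the median. For WT-MPP it ran from 14.6% through 65.8% to 99.6%, for BM HSC from 4.48% through 55.7% to 82.3% and for FL HSC from 21.1% through 35.9% to 74.3%, so that all ranges overlapped. Yet 46 of 47 CD11b+CD48+SK cells lay above the FL HSC median, and 3 of 56 FL HSC lay above the CD11b+CD48+SK median. Likewise 2 FL HSC exceeded the WT-MPP median and 5 the BM HSC median. Of the 41 WT-MPP, 30 exceeded the BM HSC median, as did 37 of the 47 CD11b+CD48+SK cells. Of the 36 BM HSC, 8 exceeded the WT-MPP median and 8 the CD11b+CD48+SK median. CD11b+CD48+SK cells and WT-MPP were not set apart, since 19 of the 47 and 24 of the 41 exceeded the median of the other. The share was over 50% in 43, 33, 26 and 11 cells. Without the 1 FL HSC of highest immunoproteasome sum, the FL HSC share was 38.95% instead of 40.6%.

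The places of the exchange differed from each other. Psmb8 made 70.1%, 80.6%, 70.6% and 47.1% of Psmb5 plus Psmb8, and Psmb9 made 52.2%, 49.7%, 39.7% and 27.1% of Psmb6 plus Psmb9, with FL HSC lowest at both. Psmb10 made 62.1%, 51.7%, 59.3% and 54.5% of Psmb7 plus Psmb10, so by these means FL HSC lay among the adult cells at the beta-2 place. In single cells the medians of this share were 57.1%, 57.1%, 62.8% and 53.6%, lowest in FL HSC here too, so their rank depended on the averaging. This share could be formed in 34 of 36 BM HSC, the others having neither gene. Single cells covered nearly the whole scale there, with a lowest share of 1.23% in the CD11b+CD48+SK cells and 0% in the others and a highest of 98.1% in FL HSC and 100% in the others. RefSeq names pseudogene copies of Psmb5, Psmb6 and Psmb7 that are no rows of the table, and how reads were divided between gene and copy is not given in the sources used here.

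**Figure D1:**
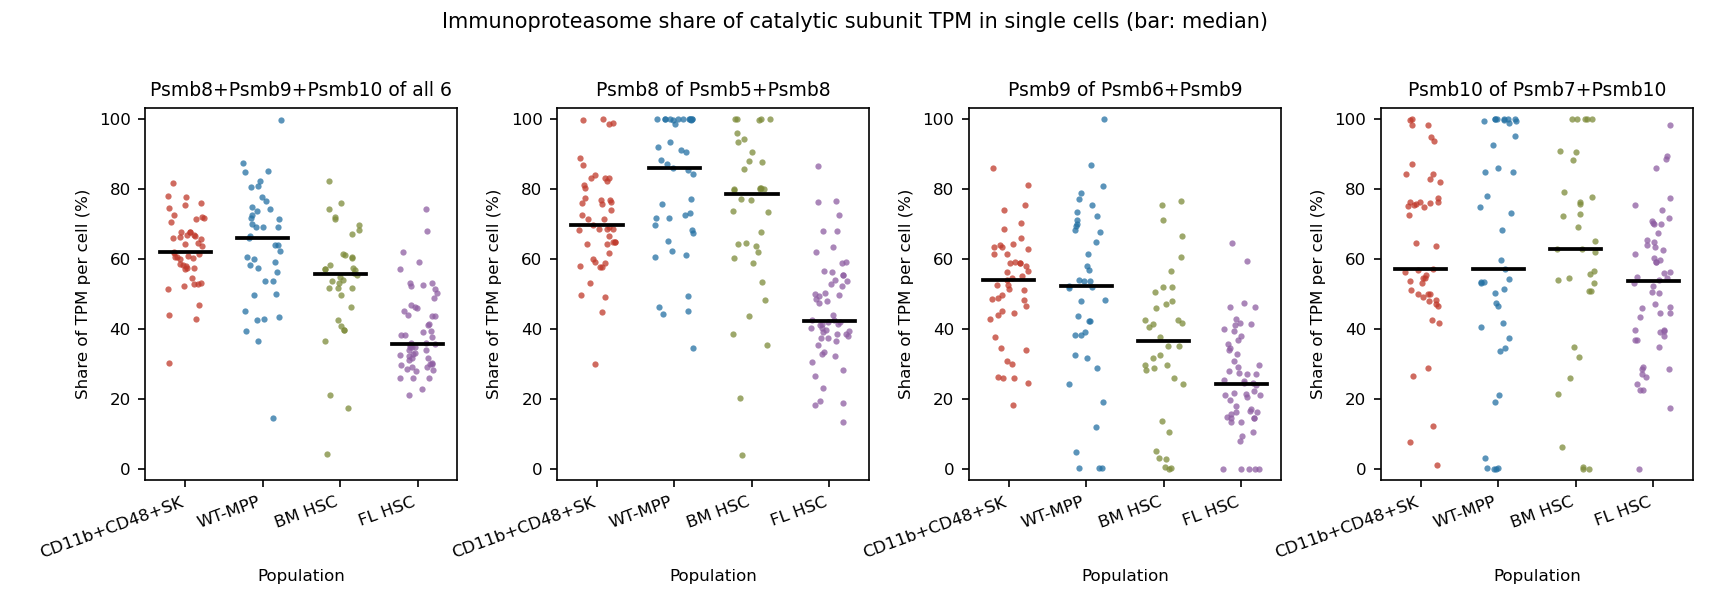
Share of cutting subunit TPM (percent, y axis) that came from immunoproteasome genes in each cell, for all 6 genes and for each exchanged pair, with 1 point per cell and a bar at the median. FL HSC have the lowest median in every panel, at 35.9% for all 6 genes and 53.6% for the Psmb10 pair, where the highest median is 62.8% in BM HSC.

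Both partners of the beta-5 place differed. Psmb8 (chr17:34198195-34201454), the inducible partner, ran from 506 through 1319.9 to 3163, from 18.3 through 1056 to 4375, from 7.96 through 711 to 3036 and from 102 through 506 to 2753 TPM. The ranges overlapped, and it was the most abundant of the 48 genes among CD11b+CD48+SK cells and among WT-MPP. Its mean of 1438 ± 638 TPM (SD, n = 47) in the CD11b+CD48+SK cells was 2.39 times that in FL HSC (602 ± 429, n = 56). WT-MPP had 1265 ± 942 (n = 41) and BM HSC 779 ± 558 (n = 36). Psmb5 (chr14:54614120-54617995), the constitutive partner, ran from 1.51 through 558 to 1709 TPM in the CD11b+CD48+SK cells and from 99.7 through 643 to 1632 in FL HSC, but from 0 through 198 to 1682 in WT-MPP and from 0 through 274 to 1057 in BM HSC. It was detected in 85.4% of WT-MPP (95% exact Clopper-Pearson interval 70.8 to 94.4%) and 88.9% of BM HSC (73.9 to 96.9%), and in every cell of the other populations. Its means were 612, 304, 324 and 676 TPM, that is 2.02 times higher for CD11b+CD48+SK than for WT-MPP and 2.08 times higher for FL HSC than for BM HSC.

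At the beta-1 place the inducible gene differed more than the constitutive one. Psmb9 (chr17:34182030-34187330) ran from 151 through 766 to 1432, from 2.91 through 654 to 1739, from 1.98 through 389.7 to 1434 and from 0 through 243 to 1243 TPM. It was detected in 52 of 56 FL HSC (92.9%, interval 82.7 to 98.02%) and in every adult cell. Its means were 763, 650.5, 481 and 297 TPM, 2.57 times higher for CD11b+CD48+SK than for FL HSC. The constitutive Psmb6 (chr11:70525324-70527858), detected in every cell, had means of 698, 658, 729 and 799.7 TPM. At the beta-2 place, Psmb10 (chr8:105935728-105938392) had 361, 276, 249 and 251 TPM and Psmb7 (chr2:38588046-38643952), the lowest gene of the constitutive core, had 219.8, 258, 170.3 and 209 TPM.

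Of the PA28 genes, Psme1 (chr14:55578494-55581527) was detected in every cell with means of 1041, 981, 779.5 and 1061 TPM, and here FL HSC did not stand low. Psme2 (chr14:55587440-55591101) had 609, 380.3, 390.2 and 399 TPM, 1.60 times higher for CD11b+CD48+SK than for WT-MPP. RefSeq also names a copy of it, Psme2b, which is no row of the table.

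The class I pathway that takes up the peptides was read from a list of 11 genes. Tap1 and Tap2, which form the peptide transporter, had 91.7, 118, 78.7 and 42.4 TPM and 195, 328, 195 and 74.1 TPM, and Tapbp, which links it to class I, had 178, 215, 177 and 103.3 TPM. The heavy chain genes H2-K1 (3572, 3692, 4184 and 1533 TPM) and H2-D1 (3198, 3491, 4015 and 1328 TPM) were likewise lowest in FL HSC. A difference below is one of mean log2(TPM+1), and a gene counts as higher or lower where that difference reached 1. FL HSC were lower than BM HSC in 5 of the 11 (H2-K1, H2-D1, B2m, Canx and Tap2), beside 5.44% of all genes kept, and higher in Erap1, which trims the peptides (1.24, beside 25.6% of all genes). They were lower than WT-MPP in 6 of the 11, beside 3.08% of all genes, and CD11b+CD48+SK cells were higher than FL HSC in 6, beside 4.02%.
Against BM HSC, the CD11b+CD48+SK cells were higher in 4 of the 5 immunoproteasome genes and in 3 of the 11. These 3 were Tap1 (1.60), Calr (1.29) and Tapbp (1.07). The counts stand beside 13.4% of all genes and 28.1% of genes with a mean of 100 TPM or more in any population. The class I chains were not higher on this scale, at -0.28 for B2m, -0.23 for H2-K1 and -0.22 for H2-D1. Where TPM was averaged before log2 was taken, 0 genes were higher in either list, beside 9.78% of all genes. The 5 immunoproteasome genes stayed above 0 there, with a median of 0.64. For the 11 the median was -0.23, and 1 gene was lower, beside 27.7%. Within populations, the immunoproteasome sum of a cell and its sum of these 3 chains had a Spearman rho of -0.13, -0.19, -0.27 and 0.22 (n = 47, 41, 36 and 56 cells, which share library and depth).

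**Figure D2:**
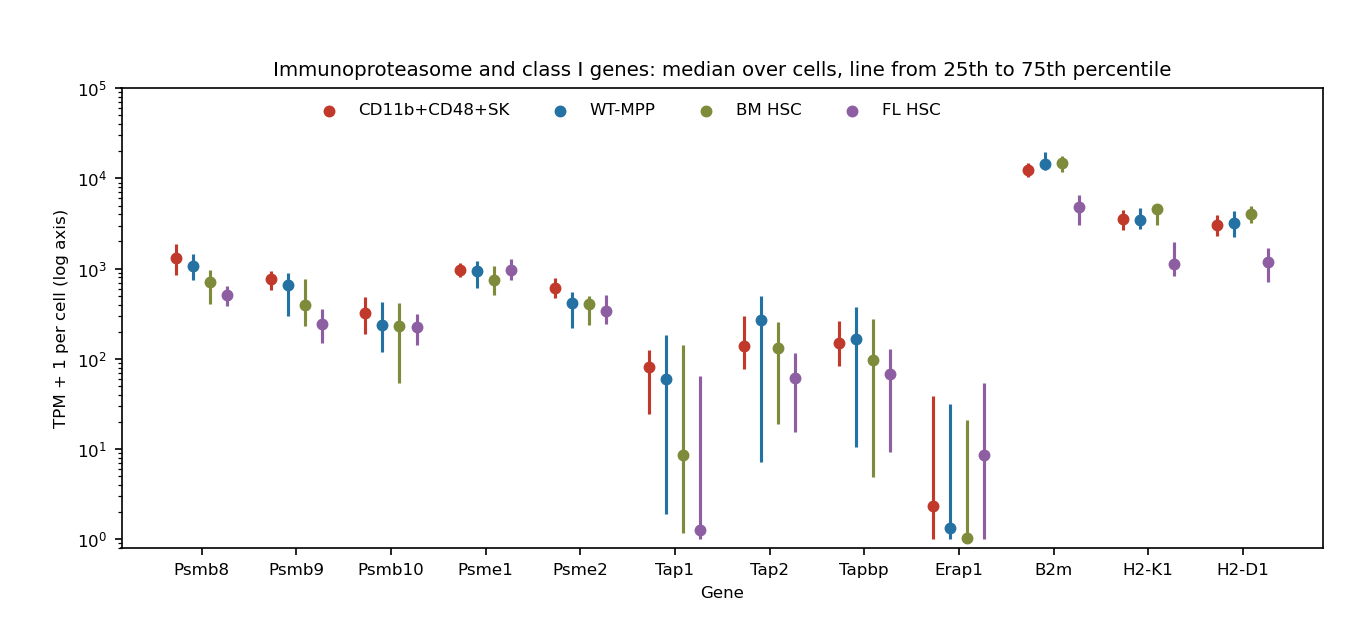
TPM plus 1 (log axis) of the 5 immunoproteasome genes and 7 class I pathway genes, with a point at the median over the cells of a population and a line from the 25th to the 75th percentile. FL HSC have the lowest median of every gene shown except Psme1 and Erap1, with 506 TPM for Psmb8 and 243 TPM for Psmb9.

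Among 16 interferon signalling genes, 2 were higher and 2 lower in the CD11b+CD48+SK cells relative to WT-MPP, beside 19% and 5.01% of all genes. The higher were Ifnar2, a chain of the type I receptor (2.15), and Irf3 (1.73), and the lower were Irf9 (-1.43) and Irf2 (-1.19). Relative to BM HSC, Ifnar2 was higher (2.61) and Irf2, Jak1, Stat2 and Irf9 were lower, by up to -2.90, beside 11.8% of all genes. FL HSC were higher than WT-MPP in 5 of the 16 and lower in 0, beside 33.9% and 3.08% of all genes. They were higher than BM HSC in 5 and lower in 3, beside 25.6% and 5.44%. Irf1, a factor known to act on class I and immunoproteasome genes, had means of 181, 263, 205 and 90.0 TPM. Irf7, a factor of the type I response, had means of 33.3, 38.3, 52.3 and 142 TPM and was detected in 14.9%, 19.5%, 30.6% and 51.8% of cells. Few cells carried the FL HSC mean, since the median was 2.48 TPM and the highest cells had 2305 and 1765 TPM. The first of these was also the FL HSC with the most Psmb8 and Psmb9.

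Proteasome genes as a whole were found in most cells. The median member was detected in 95.7%, 85.4%, 91.7% and 98.2% of cells, where the median of all genes kept was 34.04%, 26.8%, 33.3% and 41.1%. All cells of the population had 17, 10, 15 and 22 of the 48. A CD11b+CD48+SK cell had 35 (lowest), 41 (median) or 46 (highest) members, and the medians of WT-MPP, BM HSC and FL HSC were 37, 41 and 44. This number went with the number of genes detected in the cell (Spearman rho 0.77, 0.79, 0.78 and 0.76).

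**Figure D3:**
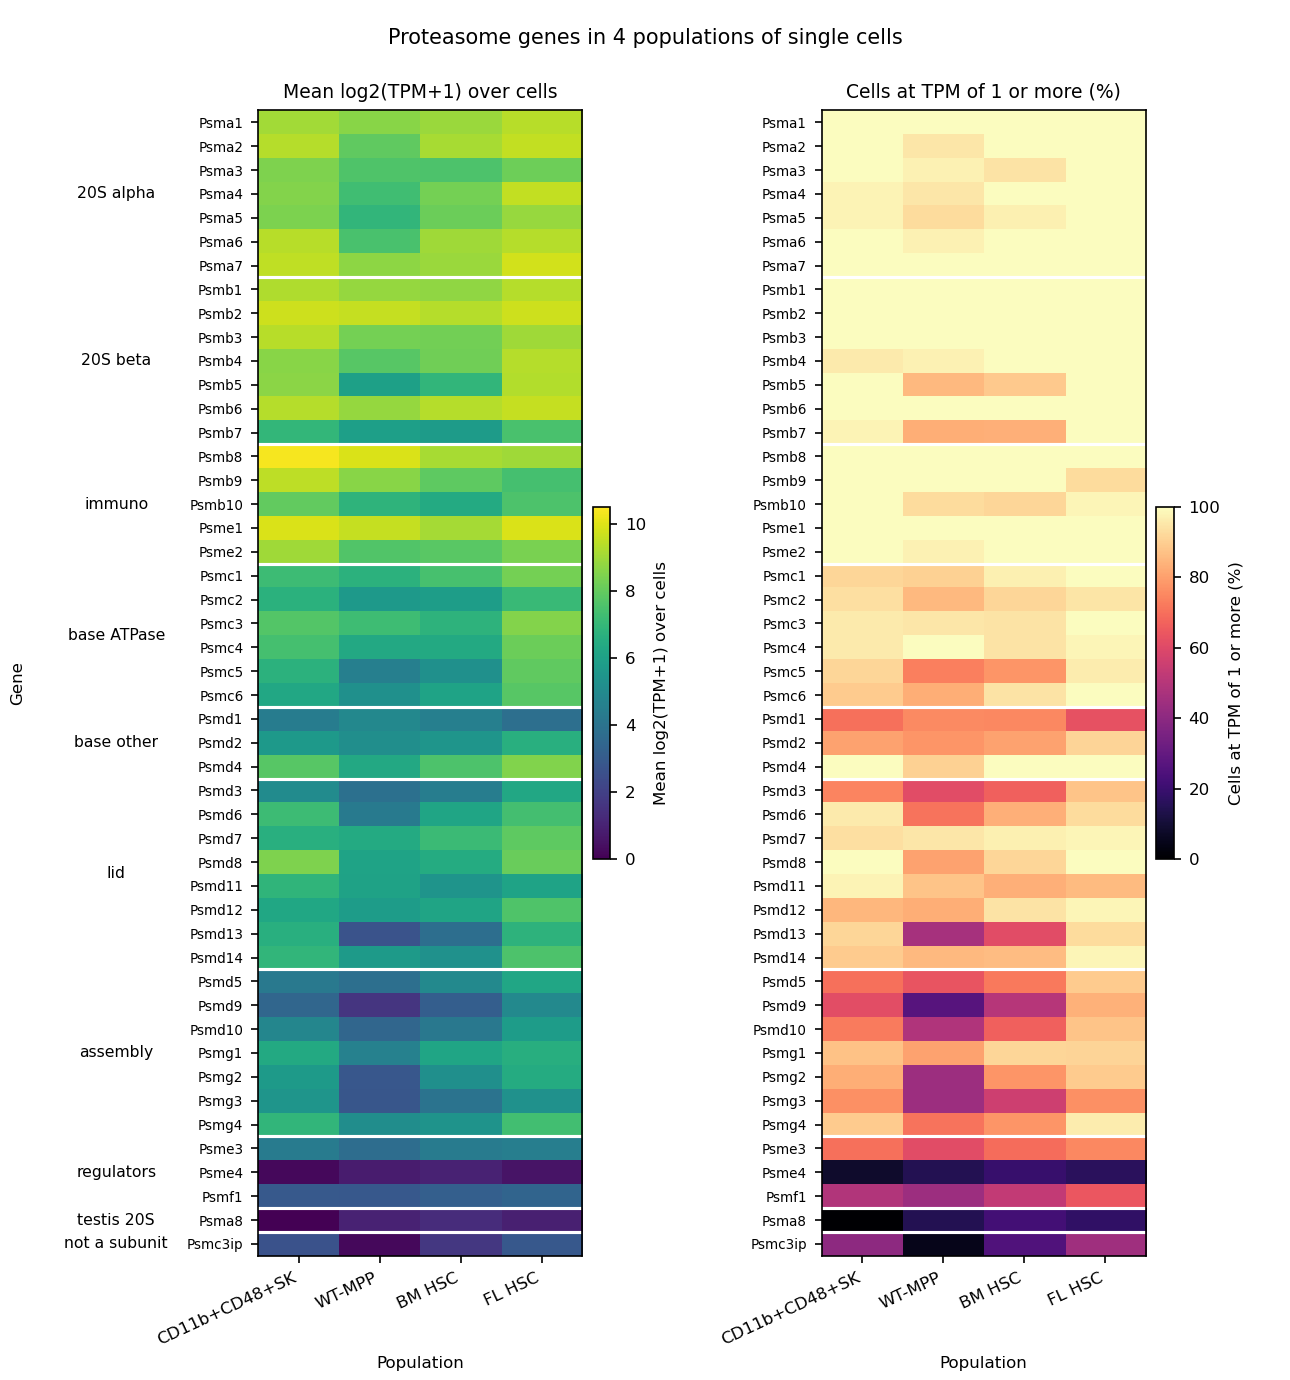
Mean log2(TPM+1) over cells (left) and percent of cells with the gene detected (right) for the 48 genes, in rows by role, in the 4 populations. Core and immunoproteasome genes are mostly high and in most cells, and 19S genes mostly lie lower. Several chaperones are low in WT-MPP, such as Psmd9 in 26.8% of cells.

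Summed over the 14 constitutive core genes, CD11b+CD48+SK cells held from 5089 through 9597 to 11884 TPM and FL HSC from 6365 through 9109.6 to 12044, while WT-MPP held from 4071 through 7218 to 12615 and BM HSC from 3898 through 7354 to 14740. The populations overlapped throughout, and their SD over cells was 18.1%, 27.6%, 27.9% and 14.4% of the mean, so WT-MPP and BM HSC varied more. All 14 genes were detected in each of the 56 FL HSC. The 17 genes of base and lid had mean sums of 3961, 3642, 3536 and 4550.3 TPM, the 5 immunoproteasome genes 4212, 3553, 2679 and 2610.2 TPM and the 7 chaperones 1080.3, 805, 934 and 1050.2 TPM. Base and lid stood at 43.5%, 51.9%, 48.3% and 49.9% of the core sum in the median cell. Since TPM is a share of the transcripts of a cell, more proteasome RNA and less of other RNA cannot be told apart. Core and 19S sums had a Spearman rho of 0.34, 0.03, 0.20 and 0.48 over cells.

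**Figure D4:**
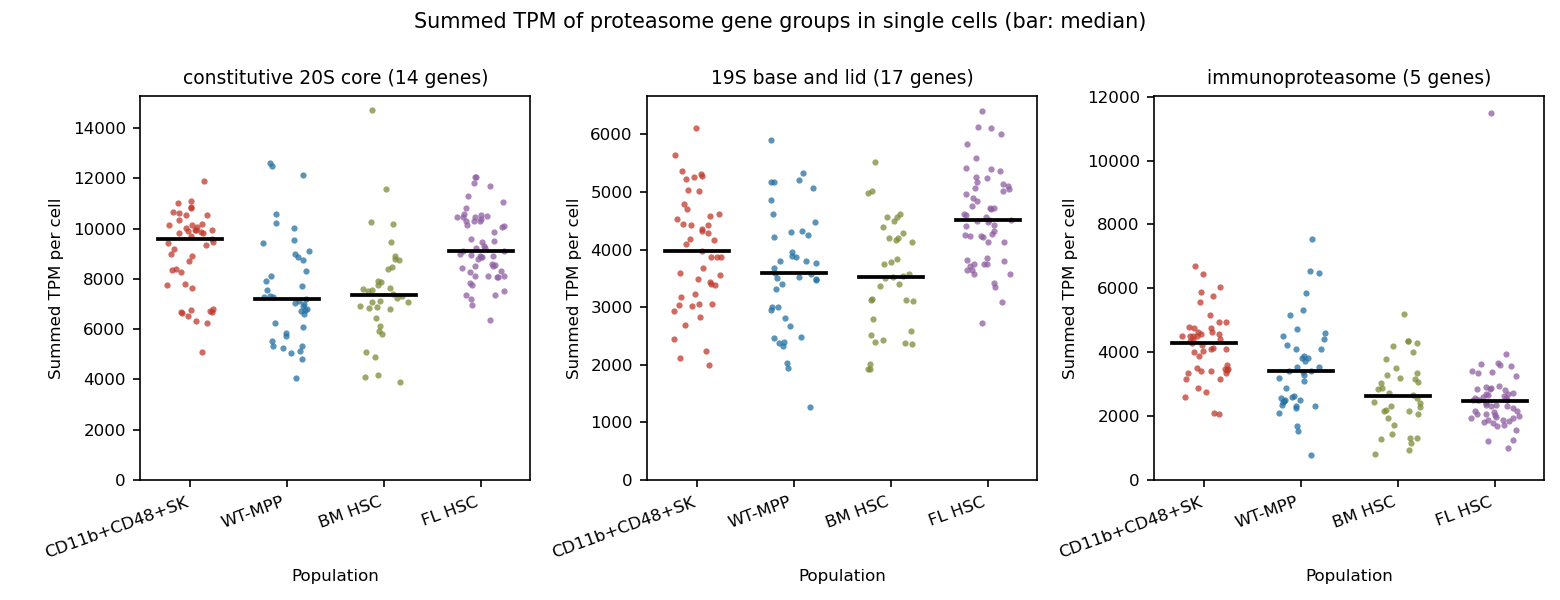
Summed TPM per cell (y axis) of the 14 constitutive core genes, the 17 genes of 19S base and lid and the 5 immunoproteasome genes, with 1 point per cell and a bar at the median. Core medians are 9597 TPM in CD11b+CD48+SK cells and 9109.6 in FL HSC against 7218 in WT-MPP and 7354 in BM HSC, and 1 FL HSC stands apart at 11488 TPM for the immunoproteasome.

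Relative to WT-MPP, CD11b+CD48+SK cells were higher in 26 members and lower in 0, beside the 19% and 5.01% of all genes given above. Among cells with 3500 to 5500 genes detected (40 CD11b+CD48+SK and 30 WT-MPP), 15 members were higher and 2 lower. Shares of all genes were not taken in such cells, where the median difference was 0.46 for the members and 0.04 for all genes. Over all cells the median difference was 1.05 for the members and 0.21 for all genes. Psmd13, a lid gene, had the largest difference (3.95). It ran from 0 through 174 to 472, from 0 through 0.712 to 519.6, from 0 through 2.22 to 649 and from 0 through 173 to 476 TPM, with full overlap. Its detection was 91.5%, 46.3%, 61.1% and 92.9% of cells, with intervals of 79.6 to 97.6%, 30.7 to 62.6%, 43.5 to 76.9% and 82.7 to 98.02%. Among the cells that had it, the medians of 183, 121, 136 and 185 TPM lay closer together than the means over all cells, 189, 75.5, 102 and 197 TPM.
Relative to BM HSC, CD11b+CD48+SK cells were higher in 16 members and lower in Psma8 alone, beside 13.4% and 11.8% of all genes. The median difference was 0.53 for members and 0.00 for all genes. Relative to FL HSC they were higher in Psmb9 (2.03) and Psmb8 (1.36), which is 4.17% of the members and near the 4.02% of all genes. They were lower in 9, which is 18.8% of the members and below the 20.9% of all genes. These were Psmd5 (-1.98), Psmc6 (-1.49), Psmd9 (-1.46), Psmd12 (-1.34), Psmd7 (-1.30), Psmd3 (-1.20), Psmc5 (-1.19), Psmc1 (-1.13) and Psmd2 (-1.004).
FL HSC were higher than BM HSC in 24 members and lower in 0, beside 25.6% and 5.44% of all genes. In cells with 3500 to 5500 genes the counts were 15 and 1, with a median difference of 0.68 for members and 0.15 for all genes. FL HSC were higher than WT-MPP in 31, beside 33.9% of all genes, and lower in Psmb9 (-1.20) and Psmd1 (-1.05), beside 3.08%. WT-MPP were lower than BM HSC in 13, beside 14.49%, and higher in 0, beside 2.67%. Among cells with 3500 to 5500 genes detected, the median difference there was -0.0079 for the members and -0.14 for all genes. The comparisons share populations. In each direction that most members took, their share was above that of all genes, except for CD11b+CD48+SK against FL HSC.

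Abundant genes reached 1 more often than others on this scale. Among the 2752 genes with a mean of 100 TPM or more in any population, 43 of them members, CD11b+CD48+SK cells were higher than WT-MPP in 24 members beside 39.4% of genes and lower in 0 beside 8.28%. Relative to BM HSC the counts were 16 beside 28.1% and 0 beside 16.1%, and relative to FL HSC 2 beside 6.32% and 8 beside 33.3%. FL HSC were higher than BM HSC in 22 beside 47.1% and lower in 0 beside 6.9%, and higher than WT-MPP in 29 beside 60.1% and lower in 2 beside 4.65%. WT-MPP were lower than BM HSC in 11 beside 24.4% and higher in 0 beside 5.52%. Among abundant genes, then, the background came closer to the members, except in CD11b+CD48+SK against FL HSC. It was nearly level with them for FL HSC over BM HSC (22 of 43 beside 47.1%) and for WT-MPP under BM HSC (11 of 43 beside 24.4%).

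Mean TPM itself differed less than mean log2(TPM+1). On log2 of the mean TPM plus 1, CD11b+CD48+SK cells were higher than WT-MPP in 3 members beside 10.3% of genes and lower in 2 beside 24.1%, with a median of 0.17 over the members. The counts were higher in 0 members beside 9.78% of genes and lower in 2 beside 27.7% relative to BM HSC, and higher in 2 members beside 8.23% of genes and lower in 1 beside 19.5% relative to FL HSC, where Psmb9 (1.36) and Psmb8 (1.26) stayed the higher pair. FL HSC were higher than BM HSC in 1 member beside 11.8% of genes and lower in 2 beside 19.3%, and higher than WT-MPP in 5 members beside 14.8% of genes and lower in 4 beside 17.8%. WT-MPP were higher than BM HSC in 0 members beside 11.7% of genes and lower in 1 beside 15.6%.
With mean log2(TPM+1) taken only over cells that had the gene, CD11b+CD48+SK cells were higher than WT-MPP in 14 members beside 9.06% of genes and lower in 1 beside 24.8%, with a median of 0.60. They were higher than BM HSC in 7 members beside 8.74% of genes and lower in 1 beside 20.7%, and higher than FL HSC in 2 members beside 6.33% of genes and lower in 2 beside 12.6%. FL HSC were higher than BM HSC in 12 members beside 12.8% of genes and lower in 1 beside 17.6%, and higher than WT-MPP in 18 members beside 14.1% of genes and lower in 3 beside 23%. WT-MPP were higher than BM HSC in 0 members beside 16% of genes and lower in 4 beside 11.9%. How many members passed thus depended on the averaging.
Genes of cell division stood higher in the same populations. Of 14 listed, CD11b+CD48+SK cells were higher than WT-MPP in 13 beside 19% of all genes and than BM HSC in 12 beside 13.4%, and FL HSC higher than BM HSC in 13 beside 25.6%. Over cells, the core sum and the sum of this list had a Spearman rho of 0.25, -0.11, 0.22 and 0.08, and the part of cell division in the differences was not tested.

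**Figure D5:**
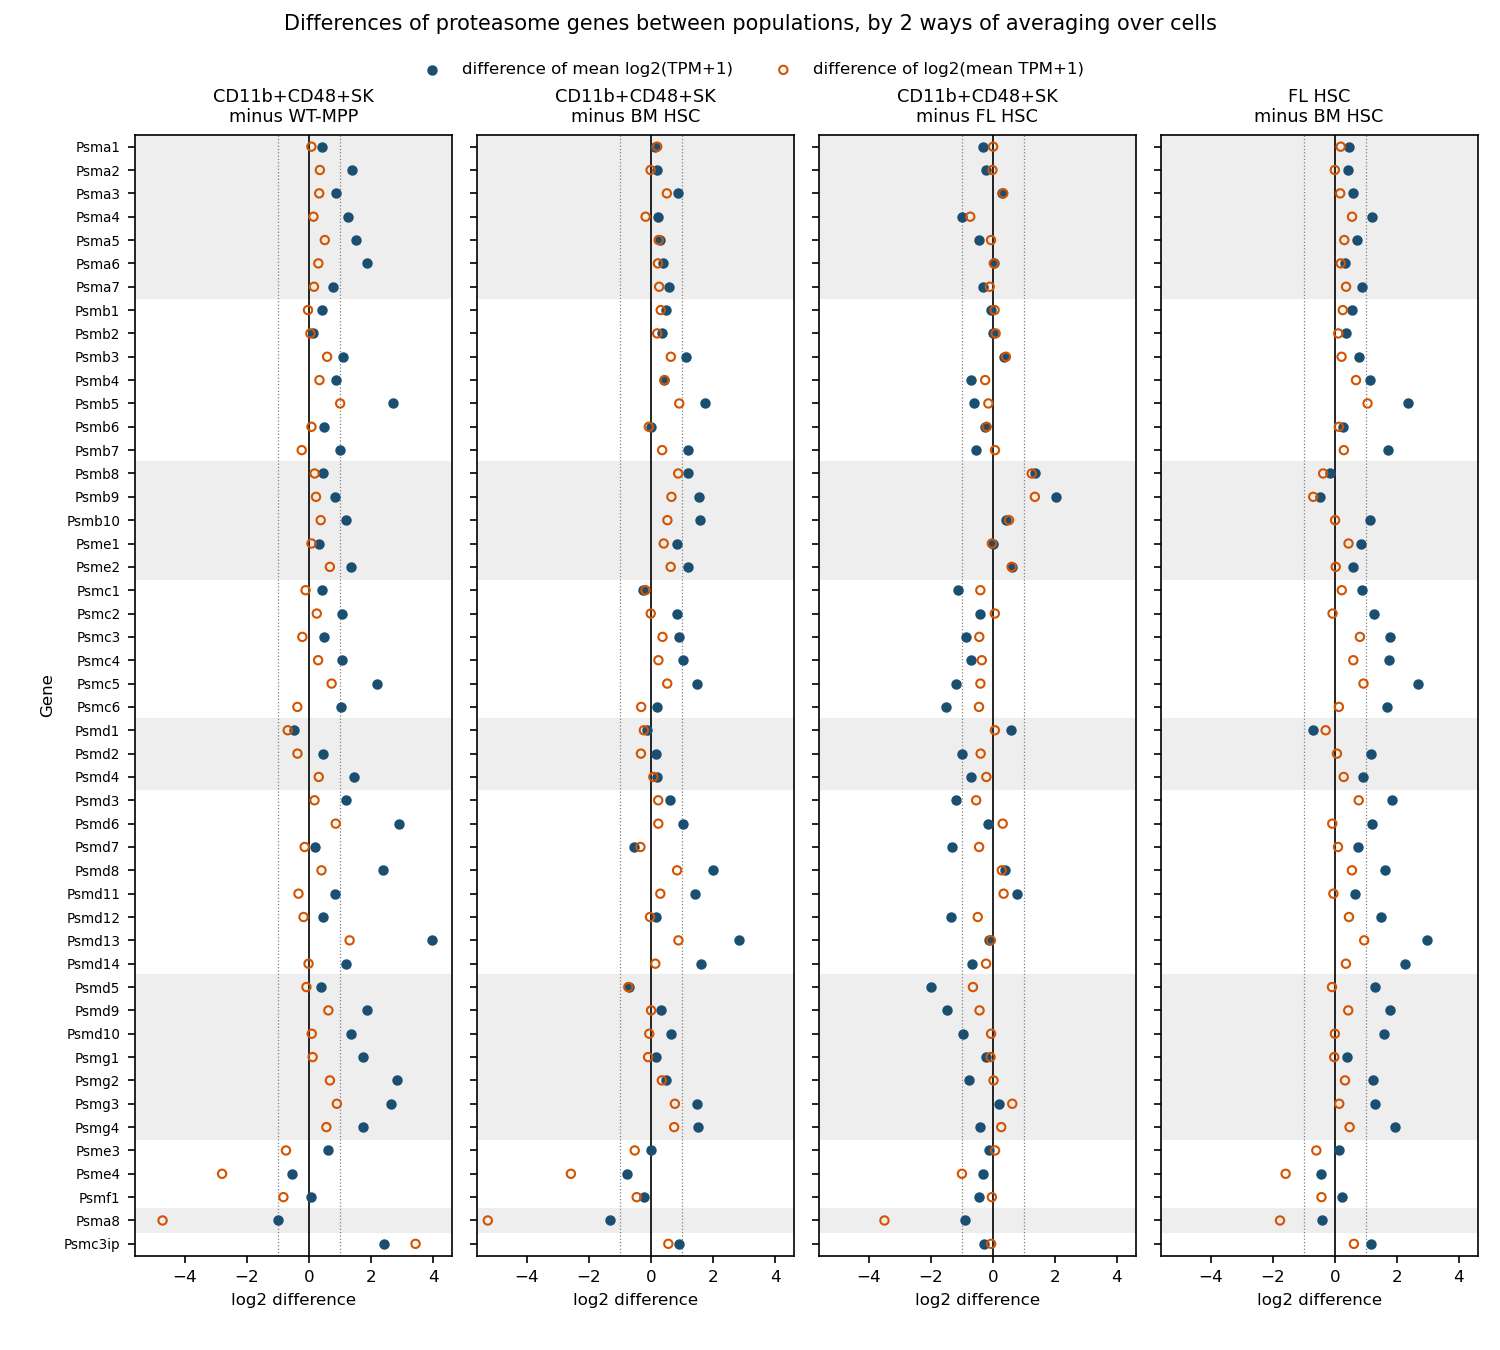
Difference between populations of each gene in log2 units, as the difference of mean log2(TPM+1) (filled) and of log2 of the mean TPM plus 1 (open), with dotted lines at 1 and -1 and grey bands for alternate roles. For CD11b+CD48+SK minus WT-MPP the filled points have a median of 1.05 and the open ones of 0.17, while Psmb8 and Psmb9 keep both points above 1 for CD11b+CD48+SK minus FL HSC.

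In the alpha ring, which gates the barrel, CD11b+CD48+SK cells were higher than WT-MPP in 4 of 7 genes, beside 19% of all genes and 39.4% of the abundant ones, and higher than BM HSC in 0, beside 13.4% and 28.1%. On log2 of the mean TPM plus 1 both counts were 0, beside 10.3% and 9.78% of genes. In mean log2(TPM+1) Psma6 differed most (1.87), with means of 705, 569.8, 601 and 688 TPM. Psma5 (1.51) had 499, 349, 418 and 518 TPM and Psma2 (1.38) had 765, 598, 768 and 770.3 TPM. Psma4 was the alpha gene that stood out in FL HSC, with 476, 429, 534 and 787 TPM. Psma1 (702, 663, 609 and 696 TPM) and Psma3 (418, 331, 291 and 329.8 TPM) differed by less than 1 in every comparison, and Psma7 (893, 796, 740.3 and 954 TPM) reached 1 between FL HSC and WT-MPP alone (1.07). Of the beta genes that do not cut, Psmb3 (796, 529, 508 and 593 TPM) was higher in CD11b+CD48+SK cells than WT-MPP (1.09) and BM HSC (1.14). Psmb4 had 597, 471, 439 and 707 TPM and was higher in FL HSC than BM HSC (1.13) and WT-MPP (1.58). Psmb1 (697, 711, 559 and 669 TPM) and Psmb2 (952, 919.8, 825 and 893 TPM) stayed within 1 throughout, as Psmb6 did.

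The ATPases of the base, which unfold the substrate, were mostly lower than the core genes. All 6 were higher in FL HSC than WT-MPP, beside 33.9% of all genes and 60.1% of the abundant ones, and 5 than BM HSC, beside 25.6% and 47.1%. CD11b+CD48+SK cells were higher than WT-MPP in 4, beside 19% and 39.4%, and than BM HSC in 2, beside 13.4% and 28.1%, the last being near the share of abundant genes. On log2 of the mean TPM plus 1 these 4 counts were 1, 0, 0 and 0, beside 14.8%, 11.8%, 10.3% and 9.78% of genes. Psmc5 led, with means of 265, 159, 183 and 349 TPM and detection in 91.5%, 73.2%, 77.8% and 96.4% of cells. Its difference was 2.20 for CD11b+CD48+SK minus WT-MPP and 2.69 for FL HSC minus BM HSC. Psmc4 had 283, 229.7, 238 and 361 TPM, Psmc3 328, 380.0, 252 and 444 TPM and Psmc1 274, 295, 309 and 362 TPM, each highest in FL HSC. Psmc2 had 213, 178, 213 and 203 TPM. For Psmc6 (196, 254, 243 and 267 TPM) the scale decided, since CD11b+CD48+SK minus WT-MPP was 1.03 in mean log2(TPM+1) and -0.37 on log2 of the mean TPM plus 1. The ubiquitin receptor gene Psmd4, also of the base, had 339.6, 272, 321 and 391.99 TPM and differed by 1.45 between the first 2 populations. The scaffold genes Psmd1 (72.8, 117, 85.1 and 69.4 TPM) and Psmd2 (131, 169, 163 and 171 TPM) differed by -0.47 and 0.45 there.

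In the lid, CD11b+CD48+SK cells were higher than WT-MPP in 5 of 8 genes, beside 19% of all genes and 39.4% of the abundant ones. They were higher than BM HSC in 5, beside 13.4% and 28.1%, and FL HSC were higher than BM HSC in 6, beside 25.6% and 47.1%. On log2 of the mean TPM plus 1 these 3 counts were 1, 0 and 0, beside 10.3%, 9.78% and 11.8% of genes. Beside Psmd13, Psmd6 had 317, 174, 268 and 254 TPM in 95.7%, 70.7%, 83.3% and 92.9% of cells (2.92 for CD11b+CD48+SK minus WT-MPP). Psmd8 had 401, 302, 222 and 327 TPM and was detected in every CD11b+CD48+SK cell and FL HSC. Psmd14, which encodes the subunit that removes the ubiquitin chain, had nearly equal means (225, 227, 204 and 262 TPM), so that CD11b+CD48+SK minus WT-MPP was 1.19 in mean log2(TPM+1) beside -0.01 on log2 of the mean TPM plus 1. Psmd3 had 114, 100.5, 96.6 and 166 TPM, Psmd7 224, 246, 283 and 304 TPM and Psmd12 190.0, 214, 193 and 266 TPM, each highest in FL HSC. For Psmd11 the mean was lowest in FL HSC (199, 251, 160.4 and 156 TPM), but FL HSC minus BM HSC was 0.64 in mean log2(TPM+1) beside -0.043 on log2 of the mean TPM plus 1.

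The assembly chaperones help to build core and base and then leave. CD11b+CD48+SK cells were higher than WT-MPP in 6 of 7, beside 19% of all genes and 39.4% of the abundant ones. They were higher than BM HSC in 2, beside 13.4% and 28.1%, and WT-MPP were lower than BM HSC in 5, beside 14.49% and 24.4%. On log2 of the mean TPM plus 1, CD11b+CD48+SK cells were higher than WT-MPP in 0 of 7, beside 10.3% of genes, and than BM HSC in 0, beside 9.78%. Over cells that had the gene, they were higher than WT-MPP in 1, beside 9.06%. The core chaperone genes Psmg2 (181, 113, 141 and 178 TPM) and Psmg3 (183, 97.6, 107 and 118 TPM) were each detected in 43.9% of WT-MPP, beside 83.0% and 76.6% of CD11b+CD48+SK cells. Psmg1 had 193, 177, 205 and 203 TPM and Psmg4 271, 183, 160.4 and 224 TPM. The base chaperone gene Psmd9 had 45, 28.7, 44.7 and 60.8 TPM in 61.7%, 26.8%, 50% and 83.9% of cells. Psmd10 had 108, 101, 112 and 112 TPM in 72.3%, 48.8%, 66.7% and 87.5% of cells, so its mean hardly differed while the share of cells did. Psmd5, the third base chaperone gene, had 98.6, 104, 164 and 154 TPM. Pomp, which encodes the maturation factor of the core and is outside the symbol rule, had 569, 446, 427 and 507 TPM.

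The remaining genes were low. Psme3, the gene of nuclear PA28, had 67.5, 113, 97.0 and 64.0 TPM, and Psmf1, the gene of a core inhibitor, had 33.3, 59.5, 46.01 and 33.97 TPM. Psme4, which encodes the PA200 cap, was detected in 8.51%, 14.6%, 19.4% and 16.1% of cells at 0.899, 12.2, 10.3 and 2.78 TPM. Psma8 was listed at 0 in all 47 CD11b+CD48+SK cells, where the Clopper-Pearson bound on the share that had it was 7.55% (counting of cells only, with depth unknown), and was detected in 6 WT-MPP (14.6%), 8 BM HSC (22.2%) and 10 FL HSC (17.9%). It is a close relative of Psma7, and how reads were divided between both is not given in the sources used here. Psmc3ip, no proteasome gene, was detected in 40.4%, 4.88%, 25% and 44.6% of cells.

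Genes that act beside the proteasome were read from further lists, as CD11b+CD48+SK minus WT-MPP. Of 7 genes for receptors and enzymes on the proteasome, 2 were higher, beside the 19% of all genes, the ubiquitin receptor gene Adrm1 (2.38, with 200.2, 109, 159 and 208 TPM) and the deubiquitinase gene Uchl5 (2.01, with 200.3, 126, 159.9 and 193 TPM). Of the 6 shuttle genes, which bring ubiquitinated proteins to the proteasome, 2 were higher, beside 19% of all genes, among them Rad23b (1.68). Ubqln1 was lower (-1.43), the only 1 of the 6, beside 5.01%. Of 8 genes around NRF1 and NRF2, factors known to act on proteasome genes, Nfe2l2 was lower, beside 5.01% of all genes (-1.42, with 74.9, 204, 148 and 93.1 TPM) and the other 7 stayed within 1. None of the 4 segregase genes reached 1, the nearest being Nsfl1c (0.39), nor did the ubiquitin activating genes Uba1 (0.91) and Uba6 (0.84).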

How the data were processed

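Single FACS-sorted cells of 4 populations were amplified and sequenced, 1 library per cell. As deposited, the values are TPM, which the authors estimated per gene after alignment. The submitters' processing notes name bcl2fastq, HISAT2 2.1.0, SAMtools 0.1.19, StringTie 1.3.4 and the build mm10. The annotation, the rule for listing genes and read counts are not given in the sources used here, so depth per cell is unknown and the number of genes detected stands in for it. Of 181 columns of cells, 1 has no sample and was not used.

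Means over cells of log2(TPM+1), with a pseudocount of 1 that understates differences of low genes, were compared in 6 pairs of populations. A gene was kept if it reached a TPM of 1 in at least 10% of the cells of a population, and counted as higher or lower at a difference of 1. No test was made, because no animal was named. Values were given for every member with a difference of 1 or more in any comparison, the extremes of each role, the immunoproteasome and cutting subunits, and pathway genes of a difference of 1 or more or the largest of their list. Some genes that this rule names are not reported here. The members and lists were chosen with earlier results of these data known. Lists of erythroid, B, T, macrophage or dendritic and mast or basophil markers were also read. In CD11b+CD48+SK, WT-MPP, BM HSC and FL HSC their summed TPM had medians of 0 each (erythroid), 105, 2.72, 193 and 209 (B), 0.293, 0, 0 and 0 (T), 0, 0, 0 and 12.8 (macrophage or dendritic) and 144, 0, 0 and 0 (mast or basophil). Start regions and their motifs came from RefSeq on GRCm38.p6. The procedure was checked on simulated data. Python 3.11.15, numpy 2.4.6, pandas 2.3.3, scipy 1.17.1 and matplotlib 3.10.9 were used. Alternatives covered pseudocount, averaging, filter, scaling, number of genes per cell and size of difference.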

Additional observations from a re-analysis of the deposited data

How the results depend on the processing

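No paired analysis was possible because the numbers in the titles name single cells and the results come from no test. The values have no error between animals, read counts were not given, and TPM is relative within a cell. The immunoproteasome share kept FL HSC lowest in all 3 alternatives, at 35.9 to 40.9% against 62.0 to 64.5% for CD11b+CD48+SK, 54.02 to 65.8% for WT-MPP and 54.9 to 58.2% for BM HSC. Counts of members moved more than this share, and the cause was not tested. Shares of all genes were not taken under the settings that follow here, so these counts cannot be set against other genes. With a pseudocount of 10, CD11b+CD48+SK had 14 members higher against WT-MPP, 10 higher and 0 lower against BM HSC and 1 lower against FL HSC. FL HSC had 14 higher against BM HSC and 1 lower against WT-MPP, and WT-MPP had 4 lower against BM HSC. A pseudocount of 0.1 gave 2, 2 and 1 lower for CD11b+CD48+SK against WT-MPP and BM HSC and for FL HSC against BM HSC. Counting differences of 0.5 gave 2, 4 and 20 lower for CD11b+CD48+SK against WT-MPP, BM HSC and FL HSC, 5 higher against FL HSC, 1 lower for FL HSC against BM HSC, and 3 higher and 21 lower for WT-MPP against BM HSC. Among cells with 3500 to 5500 genes (40, 30, 27 and 39 cells), CD11b+CD48+SK had 15 higher and 2 lower against WT-MPP and 2 lower against BM HSC, FL HSC had 15 higher and 1 lower against BM HSC, and WT-MPP had 1 higher. Scaling by the median ratio left WT-MPP 7 lower than in BM HSC. Psma8, the 1 member lower in CD11b+CD48+SK against BM HSC, was lost (0 lower) with a filter at 25% of cells.

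On log2 of the mean TPM plus 1, CD11b+CD48+SK had 3 higher and 2 lower against WT-MPP (median 0.17), 0 higher and 2 lower against BM HSC and 1 lower against FL HSC. FL HSC had 1 higher and 2 lower against BM HSC (median 0.19) and 5 higher and 4 lower against WT-MPP (median 0.21). WT-MPP had 1 lower against BM HSC, and the median turned to 0.052. Single members that turned were, for CD11b+CD48+SK minus WT-MPP, Psmb7 (-0.23), Psmc6 (-0.37) and Psmd14 (-0.00998). For FL HSC minus WT-MPP it was Psmb7 (-0.30), and for FL HSC minus BM HSC Psmc2 (-0.0696), Psmd5 (-0.0874) and Psmd6 (-0.0787).

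Further alternatives were chosen after seeing the data. Over cells that had the gene, CD11b+CD48+SK had 14 higher and 1 lower against WT-MPP, 7 higher against BM HSC and 2 lower against FL HSC. FL HSC had 12 higher and 1 lower against BM HSC and 18 higher against WT-MPP (median 0.77), and WT-MPP had 4 lower. Members that turned were Psmb7 (-0.021), Psmd9 (-0.17) and Psmd10 (-0.42) for CD11b+CD48+SK minus WT-MPP, Psmd10 (-0.42) for FL HSC minus WT-MPP, and Psmd9 (-0.31), Psmg3 (-0.23) and Psmc3ip (-0.19) for FL HSC minus BM HSC. Under scaling by the 341 genes above 0 in every cell no share of all genes was taken either. It gave 16 higher and 1 lower against WT-MPP and 10 higher against BM HSC for CD11b+CD48+SK. Genes at a mean of 100 TPM or more left out Psma8 (0 lower against BM HSC).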

Other observations

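A single FL HSC had the highest level of all 5 immunoproteasome genes among the 56, a cell chosen after its values were seen. Their sum was 11488 TPM there, and 3929 TPM in the next highest FL HSC. Psmb8 stood at 2753 TPM beside a median of 506 TPM over FL HSC, Psmb9 at 1243 beside 243, Psmb10 at 1402 beside 226, Psme1 at 3995 beside 968 and Psme2 at 2095 beside 339.9. The cell was also the highest FL HSC for Tap1 (399 TPM), Tapbp (784 TPM), Irf7 (2305 TPM) and Ly6a, the Sca1 gene (4466 TPM). B2m was the third highest of the 56, at 13411 TPM. Of the sort markers, Kit was at 2.46 TPM and Slamf1 at 0. Of the 8 myeloid markers 6 were at 0, while Prtn3 stood at 777 TPM beside a median of 436 TPM over FL HSC and Lyz2 at 217 beside 1156. Of the B cell markers, Cd79b stood at 181 TPM beside 187, and Cd79a and Vpreb1 were at 0. The listed erythroid, T cell, macrophage or dendritic and mast or basophil markers were all at 0 in it. Without this cell, the mean immunoproteasome sum of FL HSC was 2449 TPM.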
